A study of Mus musculus with 8 samples.

Results

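The genes described here are 6 members of the MHC class II antigen presentation pathway of the mouse: Cd74, H2-Aa, H2-Ab1, H2-Eb1, H2-DMa and Ciita. They were listed by symbol, and the row of the expression table that the platform's annotation gave to that symbol alone stood for each gene. All 6 had exactly 1 such row, among 19938 genes with at least 1 row of their own. The data are 8 Affymetrix arrays (Mouse Gene 1.0 ST), 2 for each of 4 groups, and values are log2 expression values made with RMA (robust multi-array average).

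The study compared blood progenitors with and without Cbfb, which encodes the partner subunit of the RUNX transcription factors (CBF beta). The samples labelled KO came from mice with the genotype Vav1-iCre x Cbfb(F/F), and those labelled Het from mice with the genotype Vav1-iCre x Cbfb(F/+), which kept 1 intact allele; all were 7 weeks old. All 4 groups therefore carried the Cre, which the Vav1 promoter drives in blood cells, and no mouse with both Cbfb alleles intact was measured. The mice were of a C57BL6 N12 backcrossed background, with 2 mice of each genotype. From bone marrow, 200000 cells were sorted per sample at a stated purity above 98%. LSK cells (lineage-negative, Sca-1-positive, Kit-positive) hold the stem cells and multipotent progenitors, and GMP are granulocyte-monocyte progenitors. The groups were Het LSK, KO LSK, Het GMP and KO GMP.

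MHC class II molecules are pairs of an alpha and a beta chain that show peptides from engulfed proteins to CD4 T cells. H2-Aa and H2-Ab1 encode the alpha and the beta chain of the I-A molecule, and H2-Eb1 the beta chain of I-E, whose alpha chain gene H2-Ea is defective in C57BL/6 mice. Cd74 encodes the invariant chain, which blocks the peptide groove of new class II molecules and guides them to endosomes, where cathepsins degrade it. H2-DMa encodes a chain of H2-DM, which exchanges the remaining invariant chain fragment for peptides, and H2-Oa and H2-Ob form H2-DO, an inhibitor of H2-DM. Ciita encodes the coactivator that class II promoters recruit through a shared module of S, X and Y boxes bound by the RFX, CREB and NF-Y factors. Class II is best known from dendritic cells, B cells and macrophages, and some stem and progenitor cells carry it too.

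Motifs of the X and Y boxes were searched in RefSeq promoter windows (assembly GRCm38.p6). Windows of 3 of the 6 members were searched: H2-Aa, H2-Eb1 and H2-DMa. H2-Ab1 and Ciita had no entry in the promoter table used here. The chromosome of Cd74 was left out of the search, so the promoter of Cd74 was not examined. The 120 bases before the start are shown for H2-Aa and H2-Eb1, which are members that differed between genotypes, and for H2-Oa and H2-Ob, the DO chain genes that carry the same motifs and were not called lower in KO. Capitals mark GCAAC, a part of the X box, and ATTGG, the Y box core read by NF-Y. Each sequence is written 5′ to 3′ on the gene's strand.
H2-Aa, chr17:34287824-34287943, minus strand: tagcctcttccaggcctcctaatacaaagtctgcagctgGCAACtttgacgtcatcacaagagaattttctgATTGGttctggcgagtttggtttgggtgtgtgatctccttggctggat
H2-Eb1, chr17:34305747-34305866, plus strand: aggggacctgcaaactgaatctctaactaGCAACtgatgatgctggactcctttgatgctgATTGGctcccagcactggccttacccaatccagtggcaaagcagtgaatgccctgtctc
H2-Ob, chr17:34238785-34238904, plus strand: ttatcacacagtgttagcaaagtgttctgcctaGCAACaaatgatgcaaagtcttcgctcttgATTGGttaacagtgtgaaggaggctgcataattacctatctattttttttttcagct
H2-Oa, chr17:34092259-34092378, plus strand: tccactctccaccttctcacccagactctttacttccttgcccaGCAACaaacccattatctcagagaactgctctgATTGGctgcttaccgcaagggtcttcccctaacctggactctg

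The gap between the 2 capitalised motifs was 28 bases in H2-Aa, 27 in H2-Eb1, 25 in H2-Ob and 28 in H2-Oa. Of 32851 RefSeq promoter windows, 0.633% held GCAAC followed by ATTGG on the gene's strand with 10 to 40 bases between them, a spacing chosen after these sequences were seen. Either motif alone was common, since 29.9% of windows held GCAAC and 33.8% held ATTGG on either strand of the 250 bases before the start. Neither of the 2 windows of H2-DMa held the pair at that spacing. A RUNX motif written as TGNGGT was found in 40.1% of windows and in neither the H2-Aa nor the H2-Eb1 window. H2-Oa, H2-Ob and the second H2-DMa window each held 1. The windows of H2-DMb2 and H2-DMb1, genes without an expression row of their own, held 3 each. The window of H2-Eb2, a class II gene read at a very low level on all arrays, held the pair with 27 bases between and no RUNX motif. The letters GAGGAA, a PU.1 core, were in 23.3% of windows and in none of the windows of H2-Aa, H2-Eb1, H2-DMa, H2-Oa, H2-Ob or H2-Eb2. The window of H2-DMb1 held 1.

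The targeted gene was checked first. Cbfb read 7.56 and 7.55 in Het LSK, 6.93 and 6.98 in KO LSK, 7.53 and 7.65 in Het GMP, and 6.48 and 6.96 in KO GMP, so both KO groups lay below their controls. The difference was -0.60 in LSK (adjusted p = 0.0557) and Cbfb fell by 0.86 in GMP (adjusted p = 0.0130). All KO arrays still read Cbfb above their array medians, so the arrays do not show how complete the deletion was. Below, loss of Cbfb and without Cbfb stand for the KO genotype. Elane, a neutrophil granule protease gene that marks GMP, was higher in GMP than in LSK by 4.69 in Het and 4.61 in KO, and Kit read 9.14 to 10.76 and Cd34 9.33 to 11.05 on all 8 arrays. Other genes that define LSK or GMP did differ between genotypes, and their values are given with the markers below. Arrays correlated at 0.990 to 0.995 within groups and 0.955 to 0.983 between them. Array medians ran from 4.92 to 5.09 and lower quartiles from 3.34 to 3.43. P-values come from limma over all 8 arrays, adjusted by Benjamini-Hochberg over 21789 rows, and a gene is called at adjusted p under 0.05. The labels call the arrays biological replicates without tying an array to a mouse, so each p-value reflects only the spread among these arrays, which may be technical. With 2 arrays a group, an exact permutation test of a single gene cannot go below 0.333.

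In LSK, the loss of Cbfb came with much lower levels of the invariant chain and of the I-A alpha and I-E beta chains. Cd74 fell 10.6-fold, H2-Aa 3.90-fold and H2-Eb1 3.09-fold. The I-A beta chain gene H2-Ab1, H2-DMa and Ciita did not pass the test. Thus 3 of the 6 members were called lower and 0 higher, where 4.71% of all rows were called lower and 3.02% higher (with array medians subtracted, the higher calls made up 52.4% of all calls in place of 39.0%). The median difference of the 6 members was -1.06, and that of all rows tested was 0.0096.

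Cd74 (transcript cluster 10456005) read 7.35 and 8.27 in Het LSK against 4.31 and 4.48 in KO LSK. The lower Het array stood well above both KO arrays, and the Het arrays lay further apart than any other pair for this gene. The difference was -3.41 (SE 0.26, 95% interval -3.99 to -2.83, adjusted p = 8.63e-05).

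H2-Aa (10450154) read 8.28 and 8.89 in Het LSK against 6.47 and 6.76 in KO LSK, and the groups did not overlap. The difference was -1.96 (SE 0.23, 95% interval -2.49 to -1.44, adjusted p = 0.000931). H2-Eb1 (10444298) read 6.95 and 7.79 in Het LSK against 5.51 and 5.98 in KO LSK, again without overlap. Its difference was -1.63 (SE 0.26, 95% interval -2.21 to -1.04, adjusted p = 0.00500).

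H2-Ab1 (10444291), the beta chain partner of H2-Aa, read 8.34 and 8.93 in Het LSK and 7.95 and 8.33 in KO LSK. The groups nearly touched without overlapping, and the difference of -0.49 (95% interval -0.97 to -0.02) did not pass the test (adjusted p = 0.238). H2-DMa (10444229) read 8.80 and 8.81 in Het LSK and 8.87 and 8.64 in KO LSK, so the KO arrays lay on either side of the Het arrays. The interval of its difference, -0.39 to 0.30, excludes a 2-fold change in either direction. Ciita (10433507) read 4.32 and 4.50 in Het LSK and 4.16 and 3.68 in KO LSK, below the array medians throughout. The difference of -0.49 did not pass the test (95% interval -0.88 to -0.10, adjusted p = 0.150), and without KO LSK replicate 1 it was -0.73 and passed (adjusted p = 0.0315). Of the 6 members, 5 had KO LSK arrays that both lay below both Het LSK arrays, against 22.7% of all rows, and 0 lay above, against 22.8%.

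**Figure D1:**
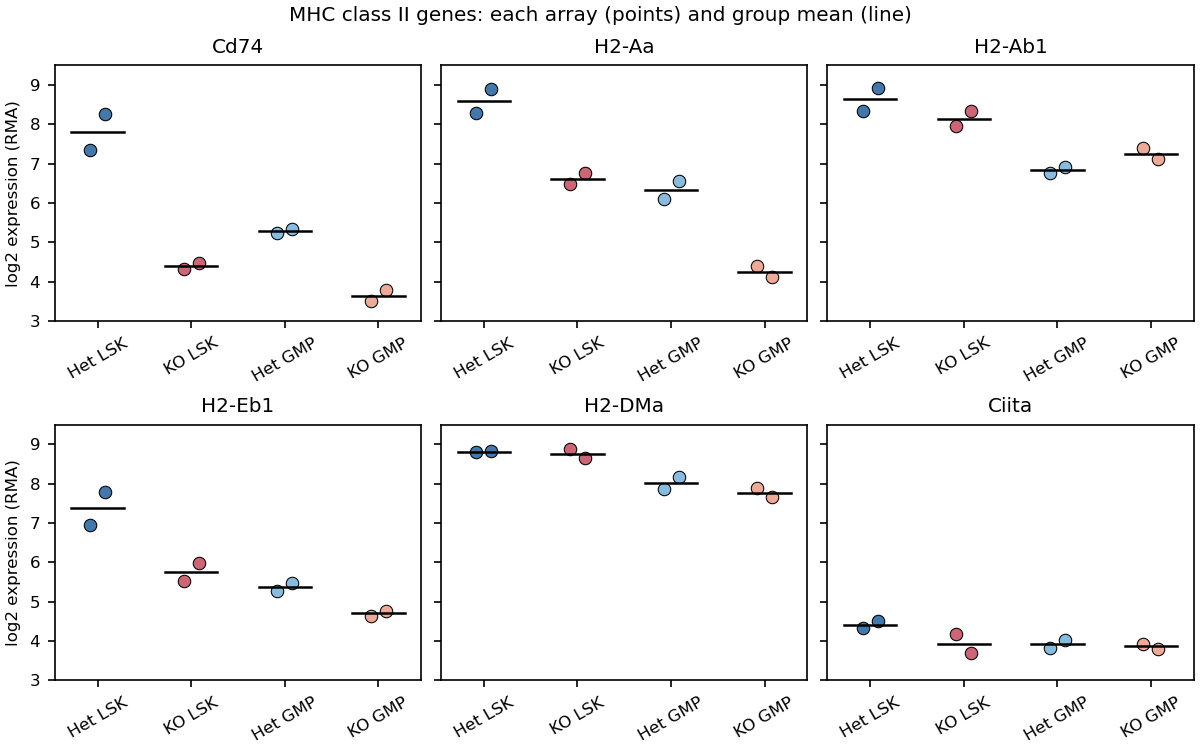
Log2 RMA expression (vertical axis) of the 6 members in the 4 groups, 1 panel a gene, with a point for each array and a line at the mean of the 2 arrays. Cd74 is at 7.35 and 8.27 in Het LSK and at 4.48 or lower in the KO arrays, while H2-Ab1 and H2-DMa in KO lie close to their Het arrays of the same cell type.

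In GMP, Cd74 and H2-Aa were again lower without Cbfb. Cd74 fell 3.12-fold and H2-Aa 4.21-fold, and the other members were not called. This made 2 of 6 called lower and 0 higher, where 2.57% of all rows were called lower and 3.45% higher. The median difference was -0.46 over the 6 members and -0.017 over all rows.

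Cd74 read 5.24 and 5.33 in Het GMP against 3.50 and 3.78 in KO GMP. The KO arrays stood near the arrays' lower quartiles, where RMA gives no detection call to tell expression from background. The difference was -1.64 (SE 0.26, 95% interval -2.22 to -1.06, adjusted p = 0.00547), and without Het GMP replicate 2 it missed the threshold (adjusted p = 0.0513).

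H2-Aa read 6.11 and 6.55 in Het GMP against 4.40 and 4.12 in KO GMP, a clear separation. The difference was -2.07 (SE 0.23, 95% interval -2.60 to -1.55, adjusted p = 0.000799). H2-Eb1 read 5.27 and 5.47 in Het GMP and 4.64 and 4.76 in KO GMP. These groups did not overlap either, yet the difference of -0.67 (95% interval -1.26 to -0.08) did not pass in the 4-group fit (adjusted p = 0.215). It passed when the 2 GMP groups were fitted alone (adjusted p = 0.0233).

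H2-Ab1 read 6.76 and 6.90 in Het GMP and 7.40 and 7.11 in KO GMP. Both KO arrays were the higher ones here, opposite to H2-Aa, but the difference of 0.42 (95% interval -0.06 to 0.90) was not called (adjusted p = 0.361). H2-DMa read 7.86 and 8.18 in Het GMP and 7.88 and 7.66 in KO GMP, with overlap. Ciita read 3.81 and 4.03 in Het GMP and 3.92 and 3.80 in KO GMP, also with overlap, and the interval of its difference ran from -0.45 to 0.34. In all, 3 members were lower on both KO GMP arrays and 1 was higher, against 27.9% and 23.4% of all rows.

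**Figure D2:**
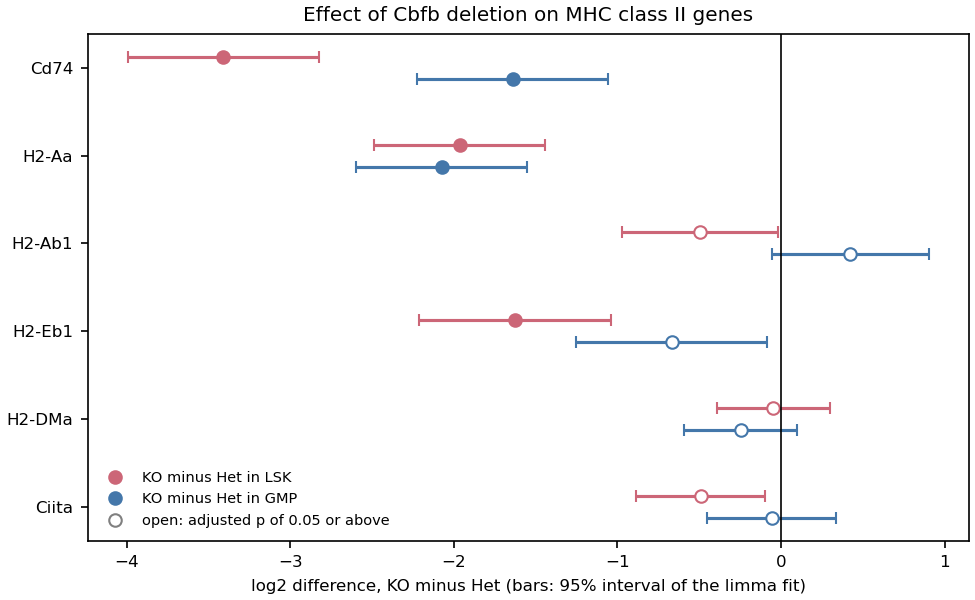
KO minus Het log2 difference of each member in LSK and in GMP, with 95% intervals of the limma fit; open symbols have an adjusted p of 0.05 or more. Cd74 is at -3.41 in LSK and -1.64 in GMP, H2-Aa is near -2 in both, and the intervals of H2-DMa include 0 in both.

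Whether the KO effect differed between the cell types was tested as an interaction, the effect in GMP minus that in LSK. Cd74 was the member called, and its measured effects differed by 1.77 (SE 0.36, 95% interval 0.94 to 2.59, adjusted p = 0.0448). So 1 of 6 members was called higher, where 1.69% of all rows were called higher and 0.601% lower (with array medians subtracted, higher calls made up 58.4% of all calls in place of 73.7%). From the Het GMP mean, a fall as large as in LSK would have brought Cd74 to 1.87, far under the arrays' lower quartiles, so the measured fall in GMP may be understated and the difference does not show a smaller effect there. The call was also a thin one: it was lost without either KO LSK array, without any 1 of the 4 GMP arrays (adjusted p up to 0.166), when array medians were subtracted (1.63, adjusted p = 0.0582), after a second quantile normalization (adjusted p = 0.0641) and when every row of the table was tested (adjusted p = 0.183). The H2-Aa effects in LSK and GMP differed by -0.11 (adjusted p = 0.944), H2-Ab1 by 0.92 (95% interval 0.24 to 1.59, adjusted p = 0.20) and H2-Eb1 by 0.96 (adjusted p = 0.289). H2-DMa and Ciita were not called (-0.20, adjusted p = 0.798, and 0.43, adjusted p = 0.529).

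Between the cell types, class II genes were lower in GMP than in LSK. Among the Het samples, Cd74 was 5.76-fold lower in GMP, H2-Aa 4.77-fold, H2-Eb1 4.01-fold, H2-Ab1 3.49-fold and H2-DMa 1.73-fold. These were 5 called lower of 6 and 0 higher, where 9.60% of all rows were called lower and 7.90% higher. Subtracting array medians moved all differences of this comparison by 0.155, and the higher calls then made up 67.1% of all calls in place of 45.1%. The adjusted p ran from 0.000218 for Cd74 to 0.00710 for H2-DMa, and the latter missed the threshold without Het GMP replicate 1 (0.0684). Ciita was -0.49 and not called (adjusted p = 0.0922), but it passed with only these 2 groups fitted (0.0469) and without either KO LSK array (0.0324). The median difference was -1.90 over the members.

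Among the KO samples, 3 of 6 members were lower in GMP and 0 higher, where 2.39% of all rows were called lower and 3.66% higher. H2-Aa was 5.15-fold lower (adjusted p = 0.000502), H2-DMa 1.98-fold lower (adjusted p = 0.00608) and H2-Ab1 1.85-fold lower (adjusted p = 0.0436). With only these groups fitted (0.0665) or with all rows tested (0.14), H2-Ab1 was not called. The H2-DMa call was lost without KO GMP replicate 2 (0.0575), and the H2-Ab1 call was lost without KO LSK replicate 2 (0.134) or without any 1 of the 4 GMP arrays (0.0776 to 0.256). H2-Eb1 was at -1.04 (adjusted p = 0.0503), and it passed with a block for the mouse (0.0290) or the replicate number (0.0153), with dim rows left out (0.0341), with an intensity trend (0.0319), with only these groups fitted (0.0417) and without either Het LSK array (0.0144). Cd74 was at -0.76 (adjusted p = 0.141), and it too passed without either Het LSK array (0.0240). Both cell type comparisons share their arrays with the genotype comparisons above, so they restate the same 4 group levels.

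The group means put the members in differing orders. For Cd74 the order from high to low was Het LSK at 7.81 ± 0.65 (SD, n = 2), Het GMP at 5.28 ± 0.07, KO LSK at 4.40 ± 0.12 and KO GMP at 3.64 ± 0.20. For this gene KO LSK thus lay below Het GMP on every array, and each step of that order was free of overlap. For H2-Aa, KO LSK at 6.62 ± 0.21 and Het GMP at 6.33 ± 0.32 overlapped, between Het LSK at 8.58 ± 0.43 and KO GMP at 4.26 ± 0.20. H2-Eb1 ran 7.37 ± 0.60, 5.74 ± 0.33, 5.37 ± 0.14 and 4.70 ± 0.08 in Het LSK, KO LSK, Het GMP and KO GMP, and none of these neighbours overlapped, although KO LSK and Het GMP differed by little more than the spread within KO LSK.

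H2-Ab1 was ordered by cell type first, with Het LSK at 8.63 ± 0.41 and KO LSK at 8.14 ± 0.27 above KO GMP at 7.25 ± 0.20 and Het GMP at 6.83 ± 0.10. H2-DMa followed the same split, with 8.81 ± 0.01 and 8.76 ± 0.16 in LSK against 8.02 ± 0.23 and 7.77 ± 0.16 in GMP. Ciita was at 4.41 ± 0.13 in Het LSK, and the other 3 groups, at 3.92 ± 0.34, 3.92 ± 0.16 and 3.86 ± 0.08, overlapped one another. Over the 8 arrays, Pearson's r was 0.91 between Cd74 and H2-Aa, 0.94 between Cd74 and H2-Eb1 and 0.95 between H2-Aa and H2-Eb1, but 0.58 between Cd74 and H2-DMa and 0.61 between Cd74 and H2-Ab1. These arrays share their 4 groups, so the correlations describe mostly the group means.

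The 2 chain genes of I-A thus moved unequally, although they are neighbours on the chromosome. The within-array difference H2-Aa minus H2-Ab1 was -0.06 and -0.04 in Het LSK, -1.48 and -1.56 in KO LSK, -0.65 and -0.35 in Het GMP, and -3.00 on both KO GMP arrays. The KO arrays stood below the Het arrays in both cell types, by 1.47 on average in LSK and by 2.50 in GMP. This pair was singled out after its values were seen, and the exact permutation p of 0.333 in each cell type is the smallest that 2 against 2 arrays can give. Because the probes of 2 genes differ in response, only the change of this difference between groups can be read, not its size in a group.

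The other genes of chain assembly and peptide loading had 0 calls lower in KO, which for so few genes is close to the share of all rows. Over all rows, 4.71% were called lower and 3.02% higher in LSK, and 2.57% lower and 3.45% higher in GMP. These shares are the background for the counts of this list and of every list below. Of 7 listed, 4 had a row of their own (H2-Oa, H2-Ob, H2-Eb2 and H2-Ea). In LSK, 0 were called, and in GMP 1 was called higher and 0 lower, with median differences of -0.20 and -0.03. H2-Ob, the beta chain of the inhibitor H2-DO, read 8.10 and 8.12 in Het LSK, 8.12 and 7.43 in KO LSK, 4.76 and 5.21 in Het GMP, and 6.77 and 6.19 in KO GMP. The LSK groups overlapped, whereas both KO GMP arrays were above both Het GMP arrays. It rose 2.82-fold in GMP (1.49, SE 0.26, adjusted p = 0.0101) against a difference of -0.34 in LSK (adjusted p = 0.557), with an interaction of 1.83 (SE 0.37, adjusted p = 0.0416). In GMP the call did not hold without Het GMP replicate 1 (0.0997), without KO GMP replicate 1 (0.0746) and when every row was tested (0.0657), and the interaction was kept in 2 of the 8 fits that left out an array.

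H2-Oa, the alpha chain of H2-DO, is named here after its values were seen. It was not called between genotypes (-0.43, adjusted p = 0.130, in LSK and -0.03, adjusted p = 0.955, in GMP). Like H2-Ob it was lower in GMP than in LSK, by 1.36 in Het and 0.96 in KO, while H2-Ob was lower by 3.12 and 1.29. Also named after their values were seen, H2-Eb2 read 3.44 to 3.82 and H2-Ea 2.50 to 3.04 over the 8 arrays, both far under the array medians. At such levels a fall could hardly be seen.

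Among 11 measured regulators of class II transcription, 2 fell in LSK and 1 in GMP, with 0 higher in either and medians of -0.12 and 0.05. The shares of all rows called lower were 4.71% in LSK and 2.57% in GMP, so these counts say little about the list. Irf8, a transcription factor of dendritic and monocytic cells, read 7.29 and 7.01 in Het LSK, 5.90 and 5.49 in KO LSK, 8.28 and 8.49 in Het GMP, and 6.02 and 5.27 in KO GMP. The KO arrays lay below the Het arrays in both cell types. It fell by 1.45 in LSK (adjusted p = 0.00700; 0.0609 without Het LSK replicate 1) and 6.70-fold in GMP (2.74 on the log2 scale, adjusted p = 0.000258). Irf4, its relative, was dim, at 3.78 and 3.89 in Het LSK and, under the lower quartiles, at 3.11 and 2.58 in KO LSK. Its fall by 0.99 in LSK (adjusted p = 0.0132) may therefore be understated, and the call was lost without either Het LSK array (0.0615 and 0.0890). In GMP its difference was 0.26. The RFX, CREB and NF-Y subunit genes on the list, whose products sit on the X and Y boxes, were not called in either cell type. Of the 11 genes, 5 were lower on both KO LSK arrays and 0 higher, against 22.7% and 22.8% of all rows. In GMP 4 were lower and 5 higher, against 27.9% and 23.4%. Creb1 and Nfyc, named after their values were seen, were among those lower in both cell types. The RFX genes, Nfya and Nfyb overlapped in LSK.

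**Figure D3:**
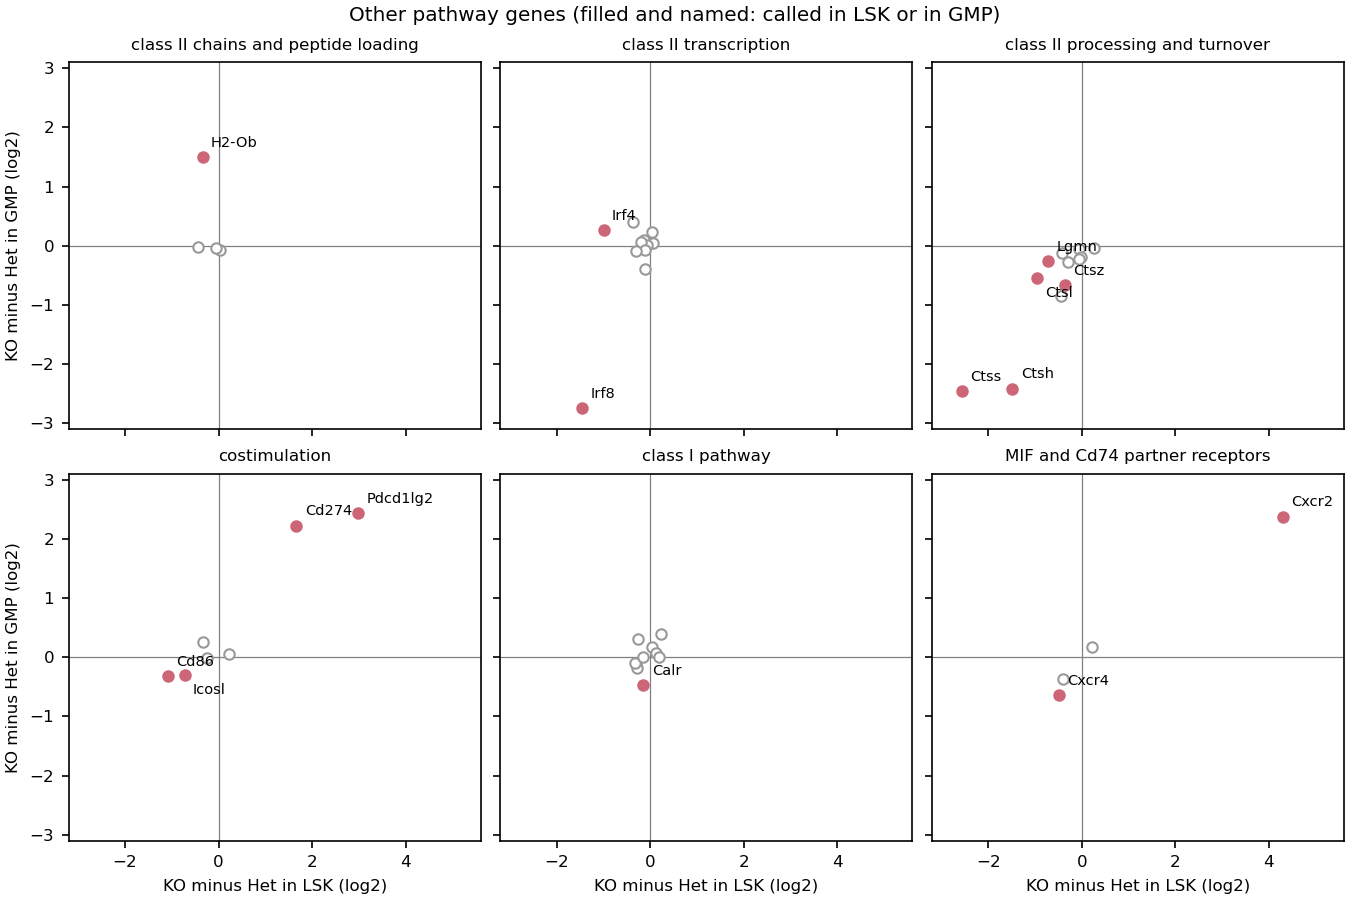
KO minus Het log2 difference in LSK (horizontal) and GMP (vertical) for each measured gene of the 6 other pathway lists, 1 panel a list; filled and named points were called in at least 1 of the 2 comparisons. Ctss, Ctsh and Irf8 lie low on both axes, Cd274, Pdcd1lg2 and Cxcr2 high on both, and H2-Ob is at -0.34 in LSK and 1.49 in GMP.

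Genes of class II processing and turnover were called in 1 direction. Of 12 measured, 4 fell in LSK and 3 in GMP, with 0 higher and medians of -0.39 and -0.26. Of all rows, 4.71% were called lower in LSK and 2.57% in GMP. Ctss encodes cathepsin S, the protease that trims the invariant chain in dendritic and B cells. It read 8.19 and 7.83 in Het LSK, 5.34 and 5.58 in KO LSK, 7.23 and 7.17 in Het GMP, and 5.26 and 4.23 in KO GMP. All 4 KO arrays lay below all 4 Het arrays. Ctss fell 5.87-fold in LSK (adjusted p = 0.000716) and 5.48-fold in GMP (adjusted p = 0.00104).

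Ctsh, for cathepsin H, read 5.15 and 5.47 in Het LSK, 3.84 and 3.82 in KO LSK, 6.85 and 7.18 in Het GMP, and 4.88 and 4.32 in KO GMP. The groups were apart in both cell types, and Ctsh fell by 1.48 in LSK (adjusted p = 0.00230) and fell by 2.41 in GMP (adjusted p = 0.000182). Unlike the class II chains, it was higher in Het GMP than in Het LSK. In LSK, Ctsl fell by 0.96 (adjusted p = 0.0287) and Lgmn, for the endosomal protease legumain, by 0.72 (adjusted p = 0.0321). These calls were kept in 3 and 4 of the 8 fits that left out an array. Ctsz was the remaining call in GMP, where it fell by 0.66 (adjusted p = 0.0234), a call kept in 4 of those 8 fits; it is named after its values were seen.

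**Figure D4:**
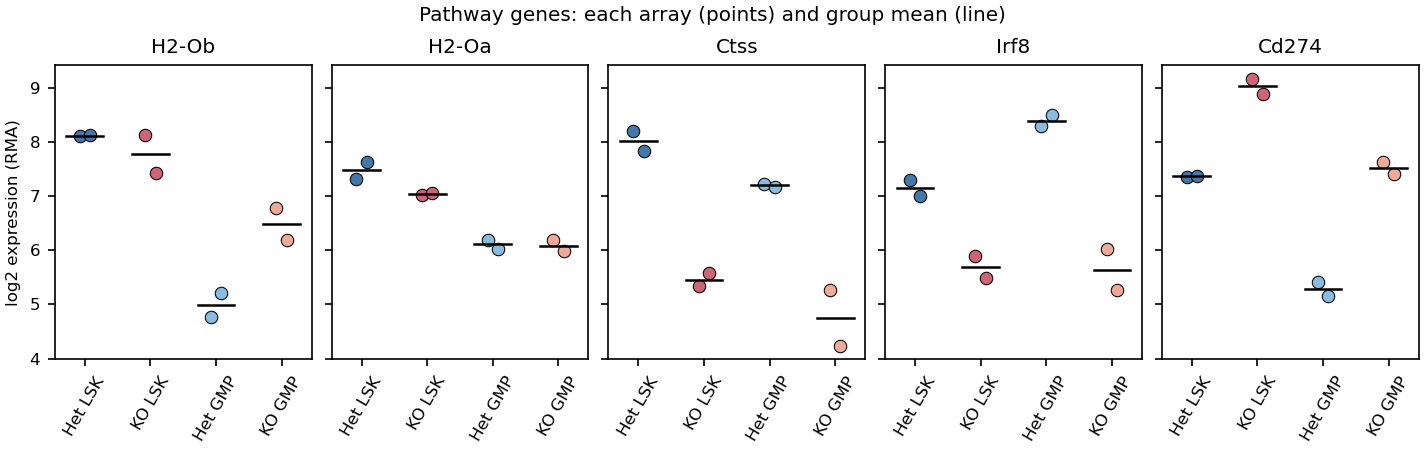
Log2 RMA expression (vertical axis) of H2-Ob, H2-Oa, Ctss, Irf8 and Cd274 in the 4 groups, 1 panel a gene, with a point for each array and a line at each group mean. Ctss and Irf8 are lower in KO than in Het in both cell types, Cd274 is higher in both, and H2-Ob is at 6.19 and 6.77 in KO GMP against 4.76 and 5.21 in Het GMP.

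Costimulation genes moved both ways. Of 7 measured, LSK had 2 called higher and 2 lower in KO, and GMP had 2 higher and 0 lower, with medians of -0.24 and 0.06. The genes for both ligands of the inhibitory receptor PD-1 rose. Cd274 (PD-L1) read 7.35 and 7.38 in Het LSK, 9.16 and 8.89 in KO LSK, 5.42 and 5.16 in Het GMP, and 7.62 and 7.41 in KO GMP, with the KO arrays above in both cell types. It rose by 1.67 in LSK (adjusted p = 0.000203) and 2.22 in GMP (adjusted p = 6.35e-05). Pdcd1lg2 (PD-L2) rose by 2.98 (adjusted p = 0.000114) and 2.43 (adjusted p = 0.000456). Cd86, a ligand of CD28, fell by 1.08 in LSK (adjusted p = 0.0332), and Icosl, the ligand of ICOS, by 0.73 (adjusted p = 0.0175). Leaving out 1 array at a time kept the Cd86 call in 3 of 8 fits and the Icosl call in 5 of 8.

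The class I pathway, which presents peptides from the cytosol, served as a comparison list. Of 10 measured genes, 0 were called in LSK and 1 fell in GMP, with medians of -0.15 and 0.00. Yet 6 were lower on both KO LSK arrays and 1 was higher, against 22.7% and 22.8% of all rows. By limma, 4 had an unadjusted p under 0.05 in LSK. In GMP 3 were lower and 3 higher on both KO arrays, against 27.9% and 23.4% of all rows. The gene called in GMP was Calr, for the chaperone calreticulin (-0.48, adjusted p = 0.0455), a call kept in 2 of 8 fits that left out an array. Psmb9, Tap1, Psmb8 and Tap2, which lie between the H2-DM genes and H2-Ob on the chromosome, were among the genes not called and are named for that position, after their values were seen. Psmb9, Tap1 and Psmb8 were among those lower on both KO LSK arrays.

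Cd74 also serves as a receptor for the cytokine MIF, together with CXCR2, CXCR4 or CD44. Of these 4 genes, LSK had 1 called higher and 0 lower in KO, and GMP had 1 higher and 1 lower, with medians of -0.08 and -0.10. Cxcr2 read 5.73 and 5.10 in Het LSK, 9.96 and 9.48 in KO LSK, 6.20 and 6.24 in Het GMP, and 8.79 and 8.40 in KO GMP, with the KO arrays above in both cell types. It rose by 4.31 in LSK (adjusted p = 2.38e-05) and 2.37 in GMP (adjusted p = 0.000460), an interaction of -1.93 (SE 0.33, adjusted p = 0.0204). The interaction was kept in 4 of the 8 fits that left out an array. Cxcr4 fell by 0.64 in GMP (adjusted p = 0.0483), a call kept in 2 of 8.

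Markers of the cell types known for class II were read beside these results, because in bulk samples fewer cells of a type and less RNA per cell cannot be told apart. The B cell markers moved with Cd74 in LSK. Of 9 measured, 5 fell in KO LSK and 0 rose. The differences were -3.42 for Ebf1, -3.35 for Blnk, -3.05 for Cd79a, -1.52 for Pax5 and -0.81 for Cd79b. Their summed log2 level was 47.0 to 48.7 in Het LSK, 35.7 to 36.0 in KO LSK, 34.0 to 34.1 in Het GMP and 34.5 to 34.8 in KO GMP. In GMP, limma called 0 of them at adjusted p under 0.05, and 0 had an unadjusted p under 0.05. Ebf1, Blnk and Cd79a averaged 3.01, 2.79 and 3.14 in Het GMP, under the arrays' lower quartiles, so a fall of these could hardly be seen there. Pax5 at 4.34 and Cd79b at 8.03 were above the quartiles. Ms4a1, the CD20 gene of mature B cells, read 2.20 to 2.91 on all arrays. The part of the B cell markers in the LSK result was not tested. These markers are named after their values were seen, as are those of the other lists.

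Of 12 dendritic cell markers, 3 fell and 2 rose in LSK, and 0 fell and 1 rose in GMP. Flt3 fell by 3.41, Itgax by 1.06 and Tcf4 by 0.61 in LSK, whereas Clec9a rose by 3.50 in LSK and by 3.45 in GMP and Cd209a rose by 0.64 in LSK. Their summed level was 59.2 to 60.8 in Het LSK, 57.8 to 58.5 in KO LSK, 50.4 to 51.7 in Het GMP and 52.9 to 53.7 in KO GMP. Without Clec9a, the sum was 55.3 to 55.8, 49.9 to 50.5, 46.9 to 47.9 and 46.0 to 46.5 in the same order (a sum added after the data were seen). It was lower in KO in both cell types, but in GMP this leaned mostly on Flt3, at -0.90 and not called (adjusted p = 0.122). The GMP differences of the remaining markers ran from -0.26 (Siglech) to 0.21 (Zbtb46), so the direction of the GMP sum depends on single genes. Of 7 monocyte and macrophage markers, 1 rose and 0 fell in LSK. In GMP 3 fell (Csf1r with a difference of -1.23, Adgre1 with -1.15 and Ccr2, which fell most) and 1 rose, Cd14, with sums of 43.4 to 44.2 in Het GMP and 39.6 to 42.1 in KO GMP. Their part in the Cd74 and H2-Aa results was not tested.

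Of 7 T and NK cell markers, 1 fell in LSK and 0 in GMP, where 4.71% and 2.57% of all rows were called lower. Of 4 mature myeloid and erythroid markers, 0 were called in either cell type by limma, with 2 at an unadjusted p under 0.05 in GMP. Of 4 genes that define LSK, 1 rose and 1 fell in LSK and 1 rose in GMP. Slamf1 rose by 2.40 in LSK and by 3.42 in GMP, and Flt3 fell by 3.41 in LSK. Of 6 genes that define GMP, 2 rose and 1 fell in LSK and 1 rose in GMP. Fcgr2b rose by 2.44 in LSK and by 0.80 in GMP, Fcgr3 rose by 1.07 in LSK, and Mpo fell by 1.19 in LSK. The sorted populations thus differed between genotypes in some of the genes that define them. Their part in the class II results was not tested.

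The genes whose pattern over the 8 arrays was most like the mean of the 6 centred members were, among 1718 rows compared, Plekha5, Il18r1, Myadm, Tnks1bp1, Nceh1, Akr1c13, Gpr171, Bex1, Slamf7 and Cyp2j9. Pearson's r ran from 0.989 for Plekha5 to 0.973 for Cyp2j9. Plekha5 averaged 5.82 in Het LSK, 4.40 in KO LSK, 4.15 in Het GMP and 3.56 in KO GMP, the order of H2-Eb1. Gpr171 averaged 9.60, 7.62, 7.24 and 6.74 in the same groups, and Cyp2j9 averaged 7.49, 5.34, 5.09 and 4.08. Ranking took these 10 genes by their likeness, so their closeness is a description and was not tested.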

How the data were processed

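The authors deposited log2 values from RMA, as named in the submitters' processing notes. Its software, version and genome build were not given in the sources used here. RMA corrects background, sets all arrays to one distribution and summarises the probes of a transcript cluster, so a global shift in RNA content is hidden and changes of dim genes are understated. RNA was amplified with a NuGEN kit before labelling, per the labels, which can distort differences.

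Of 35556 rows, 21789 had exactly 1 symbol, 1621 several and 12146 none; the row with the highest mean stood for a gene. limma 3.58.1 (R 4.3.3) fitted 1 mean per group over 8 arrays (4 residual and 4.83 prior degrees of freedom, two-sided) in 5 contrasts, and was tested on simulated data. Fold changes are 2 to the log2 difference. Array number limits the precision.

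The members, lists and tests were chosen with earlier results of these data known. Named were the 6 members, up to 4 genes per pathway list that were called between genotypes in either cell type, by size of the difference, and the 10 genes of most similar pattern (Pearson's r to the mean centred profile, SD of at least 0.5); other names are marked. Alternatives covered scaling, dim rows, rows tested, variance trend, blocks and each array left out. The expression of genes without a row of their own, such as H2-DMb1, H2-DMb2 and H2-K1, was not analysed here. RefSeq sequences (GRCm38.p6) were matched by symbol.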

Additional observations from a re-analysis of the deposited data

Results flagged for a closer look

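The measured difference between KO and Het differed between GMP and LSK by the interaction test for 3 of the named genes, each call being lost without some of the arrays. For Cd74 the difference was 1.77 (log2), from -3.41 in LSK to -1.64 in GMP, where the KO arrays stood near the lower quartiles and the fall may be understated. Its call was lost with array medians subtracted (adjusted p = 0.0582), after a second quantile normalization (0.0641), with all rows tested (0.183) and in 6 of the 8 fits without 1 array. For H2-Ob it was 1.83, from -0.34 in LSK to 1.49 in GMP, a call kept in 2 of those 8 fits. For Cxcr2 it was -1.93, from 4.31 in LSK to 2.37 in GMP, a call kept in 4 of 8.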

How the results depend on the processing

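The counts of called members stayed within 1.5 times under most alternatives, and leaving out any 1 array kept the calls of Cd74, H2-Aa and H2-Eb1 in LSK and of H2-Aa in GMP. The interaction count of 1 became 0 with array medians subtracted, with a second quantile normalization and with all rows tested, and GMP against LSK in KO went from 3 to 1 with a difference of at least 1 required. Leaving out 1 array at a time gave 3 to 4 for KO against Het in LSK, 1 to 2 in GMP, 0 to 1 for the interaction, 4 to 6 for GMP against LSK in Het and 1 to 5 in KO. The H2-DMa difference in LSK reversed to 0.039 with array medians subtracted. Without single arrays, signs reversed for H2-DMa in LSK (-0.16 to 0.068), Ciita in GMP (-0.17 to 0.053), the H2-Aa interaction (-0.41 to 0.19) and Ciita between cell types in KO (-0.30 to 0.18), none of them called. Over the whole table, calls of KO against Het were 1684 in LSK (1071 with only those groups fitted, 1008 and 994 without Het LSK replicates 1 and 2) and 1312 in GMP (784 with all rows tested, 634 to 805 without a GMP array). Interaction calls were 499 (182 with all rows tested, 223 to 308 without Het LSK replicate 2 or a GMP array). GMP against LSK gave 3813 in Het (2078 to 2367 without Het LSK replicate 2 or a Het GMP array) and 1318 in KO (756 with all rows tested, 691 with only those groups, 579 and 616 without KO GMP replicates 1 and 2); these fits have fewer arrays or more rows. Fits with the replicate block called 3, 2, 1, 5 and 4 members in the 5 comparisons in the order above, as did fits with genotype and number as a random block standing for the mouse; the fourth member in the last was H2-Eb1. Deviations of same-numbered LSK and GMP arrays correlated at 0.133 in Het and 0.179 in KO, and at -0.143 to -0.025 across genotypes, whose mice differ. LSK and GMP came from the same mice, but the labels do not say that the numbers match them. The lowest-mean row gave no other value, since each member has 1 row. Signal near the low end of the arrays limits Ciita in every group and Cd74 in KO GMP.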
